A study of Mus musculus with 6 samples.

Results

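The 10 genes described here are vessel and vascular endothelial growth factor (VEGF) genes of the mouse pituitary. They were taken by gene name from a list, out of 50348 gene names listed in any of the 6 deposited tables. The list holds 8 genes of the endothelium, namely Plvap, Pecam1, Kdr, Flt1, Cdh5, Emcn, Tek and Esm1, and 2 ligands of the VEGF receptors, Vegfa and Pgf. All 10 were listed in 5 of the 6 tables. The table of the Ghcre library ended within chromosome 5, at position 44957466, and listed 6 of the 10, so Plvap, Kdr, Flt1 and Cdh5 have no value there.

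The anterior pituitary is threaded by capillaries whose endothelium is fenestrated, that is, pierced by small pores through which hormones pass into the blood. VEGF-A, a secreted protein, signals through the receptor kinase encoded by Kdr on endothelial cells and is known to maintain such fenestrated capillaries, while the receptor encoded by Flt1 binds VEGF-A and placental growth factor, the product of Pgf. The endocrine cells around the capillaries belong to lineages named for their hormones, among them thyrotropes (Tshb), gonadotropes (Lhb) and somatotropes (Gh), and the question put to these libraries was which of those lineages hold the ligands.

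RNA was measured in 4 libraries of sorted cells and 2 of whole glands, with 1 library in each group. Mice carried Tshbcre, Ghcre or Lhbcre together with a Cre-dependent YFP reporter at the ROSA locus, glands of like genotype were pooled and dispersed, and the fluorescent cells were collected. A Cre-activated reporter also marks the descendants of cells in which the driver was once active. The adult sorted libraries were from mice at 7 weeks of age and came from 42 Tshbcre, 12 Ghcre and 7 Lhbcre glands, the young sorted library came from 5 Tshbcre glands at postnatal day 7 (P7), and the whole-gland libraries came from 1 adult nontransgenic gland, whose age in weeks the labels do not give, and 8 nontransgenic glands at P7. No value has a replicate, so no difference between groups was tested.

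Levels below are scaled FPKM, the fragments per kilobase of transcript scaled to the mapped fragments of a library, summed over the named transcripts of a gene and divided by 1 factor per library. The range in brackets after a level is the deposited interval, which covers the counting and assignment of reads within 1 library and no difference between animals. Differences are of log2(scaled FPKM + 1), which understates the change of low genes, and a call of 4-fold apart asks for that size on this scale and for a level of at least 1 in the higher library. Relative to the adult whole gland, the deposited coverage put the depth of the other libraries at 1.15 to 2.73 times, the deepest being the Ghcre library. The Tshbcre and Lhbcre libraries showed their defining hormone genes. Tshb stood at 1075 and 3001 in Tshbcre cells of the adult and P7 against 33.1 and 61.0 in the whole glands of those ages. Lhb stood at 2198 in the Lhbcre library against 637 in the adult whole gland. Lhb was also at 2904 in the adult Tshbcre library, and Gh at 14806.5 and Prl at 6546, each above Tshb, so that library also held transcripts of gonadotropes, somatotropes and lactotropes. The P7 Tshbcre library held such transcripts too. Gh stood there at 3870, above Tshb, against 6031 in the P7 whole gland, and Lhb at 1278 against 312. Gh is not listed for the Ghcre, Lhbcre and adult whole-gland libraries, so its adult Tshbcre level has no adult whole-gland value beside it. Of the other somatotrope markers, Pappa2 stood at 32.8 in Ghcre against 18.7 in the adult whole gland.

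Of the adult libraries, Tshbcre and Lhbcre cells held more Vegfa than the whole gland, and Ghcre cells held the least. It stood at 32.2 (29.9 to 34.5) in the adult Tshbcre library, 20.2 (18.9 to 21.6) in Lhbcre, 2.52 (2.14 to 2.93) in Ghcre, 15.1 (14.0 to 16.4) in P7 Tshbcre, and 10.5 (9.40 to 11.7) and 11.4 (10.5 to 12.5) in whole glands of the adult and P7. The intervals of the 2 whole glands overlapped, and those of every other pair of neighbours in this order did not. Against the adult whole gland the level was 2.88-fold higher in adult Tshbcre (log2 difference 1.53), 1.84-fold higher in Lhbcre (0.88) and 3.27-fold lower in Ghcre (-1.71). None of these 3 differences reached 4-fold, but each of them depends on the setting. The adult Tshbcre difference fell to 0.62 with assembled transcripts added. The Ghcre difference passed 4-fold at -2.02 with a pseudocount of 0.1, at -2.12 with the FPKM as deposited and at -3.59 with assembled transcripts added, and was -0.56 when the sums of the libraries were made equal. The Lhbcre difference was 2.17, and past 4-fold, with assembled transcripts added. The 3 comparisons share the 1 adult gland.

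Between sorted adult libraries the difference from Ghcre passed that size. Vegfa was 9.42-fold higher in Tshbcre than in Ghcre cells (log2 difference 3.24), where 5.24% of all genes measured were called higher. It was 6.03-fold higher in Lhbcre than in Ghcre cells (2.59), where 4.2% of genes were called higher. With equal sums these were 4.31-fold and 3.57-fold, so the second call ended. By named transcripts Vegfa was 1.56-fold higher in Tshbcre than in Lhbcre cells, an order that was lost at 32.2 against 32.5 with spliced unnamed transcripts added and turned to 2.93-fold lower with all assembled transcripts added. At P7 the Tshbcre level was 1.30-fold that of the whole gland (log2 difference 0.38). That direction turned to -0.13 when the FPKM were left as deposited and to -0.33 with assembled transcripts added. Between the Tshbcre libraries, Vegfa was 2.06-fold lower at P7 than in the adult (log2 difference -1.04), and the whole glands of the 2 ages differed by 0.11.

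Other cell types known to make VEGF-A moved with these levels in part. Markers of stem and folliculostellate cells, the non-endocrine support cells of the gland, summed to 52.5 over 7 genes in the adult Tshbcre library, 10.1 in Lhbcre, 3.77 in P7 Tshbcre, and 103 and 32.4 in whole glands of the adult and P7. Fxyd1 of that list was at 0 in adult Tshbcre. Macrophage markers summed to 36.8, 9.04, 2.24, 62.0 and 26.6 in the same order over 7 genes. The sums of both lists were below the whole gland of the same age in each of these sorted libraries, and at their lowest of the 5 in P7 Tshbcre. Single members went the other way. Among them were Fxyd1 in Lhbcre, at 3.72 against 0.678, and S100b in adult Tshbcre, at 0.428 against 0.295. Csf1r, a macrophage marker, was at 0.217 in P7 Tshbcre and listed at 0 in the P7 whole gland. Vegfa was above the whole gland in these libraries, a direction that depended on the setting at P7, as given above. In the Ghcre library the 4 listed support cell markers summed to 0.500 and the 6 listed macrophage markers to 3.26. The part of these cells in the Vegfa levels was not tested.

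**Figure D1:**
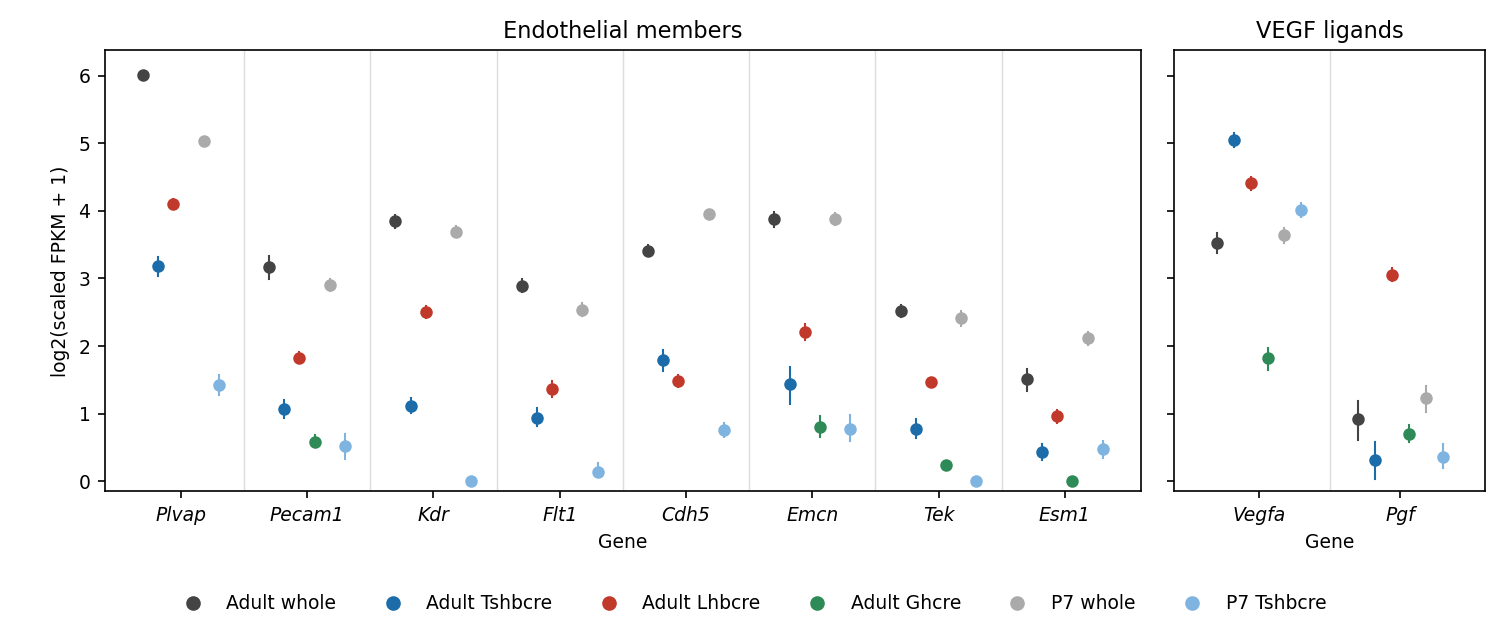
Level of each gene in each library as log2(scaled FPKM + 1) on the vertical axis, with the 8 endothelial genes on the left and the 2 ligands on the right; points are single libraries and vertical lines the deposited intervals. The whole glands (grey tones) sit at the top for the endothelial genes, whereas Vegfa, by named transcripts, is highest in adult Tshbcre at 32.2 and Pgf is highest in Lhbcre at 7.33 scaled FPKM; Plvap, Kdr, Flt1 and Cdh5 have no Ghcre point because that table does not list them.

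The transcripts of Vegfa differ in exons that encode heparin-binding stretches of the protein, which hold VEGF-A at the cell surface and matrix, so the sequences that separate them are shown. The gene lies on chromosome 17, at 46327919 to 46343303 of mm39. The sequences below are read 5′ to 3′ from the minus strand of the older build GRCm38, where the optional exons are exon 6 (chr17:46022277-46022348, 72 bases) and exon 7 (chr17:46020991-46021122, 132 bases) of 8, both coding. Capitals mark the exon itself in the first pair, with 15 bases of the neighbouring exons in lower case, and in the last they mark the exon that follows when both are skipped.
Vegfa exon 6: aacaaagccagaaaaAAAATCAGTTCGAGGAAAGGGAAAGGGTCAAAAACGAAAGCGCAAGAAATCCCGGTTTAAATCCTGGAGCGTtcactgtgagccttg
Vegfa exon 7: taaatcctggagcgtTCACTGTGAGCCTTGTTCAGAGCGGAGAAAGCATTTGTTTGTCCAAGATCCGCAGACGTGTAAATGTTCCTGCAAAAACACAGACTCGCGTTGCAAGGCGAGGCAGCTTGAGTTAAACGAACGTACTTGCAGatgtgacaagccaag
Vegfa junction with both skipped: aacaaagccagaaaaATGTGACAAGCCAAG

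From the upstream start of the gene, the deposited tables hold a transcript of 3531 nt with both exons, one of 3459 nt without the 72-base exon and one of 3327 nt without either. The last 2 correspond to the forms named VEGF164 and VEGF120. The 3531 nt transcript was at 0 in every library but Ghcre, where it stood at 0.437. The 3327 nt transcript took 56.8% (53.5 to 60.0) of the upstream-start level in adult Tshbcre, 79.9% (77.4 to 82.2) in Lhbcre, 78.1% (72.2 to 83.4) in Ghcre, 62.8% (59.0 to 66.5) in P7 Tshbcre, and 39.9% (35.0 to 44.8) and 35.7% (31.9 to 39.6) in whole glands of the adult and P7. By named transcripts alone, the share was higher in each of the 4 sorted libraries than in either whole gland. These ranges, which are built from the deposited intervals, did not overlap between sorted and whole.

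The share in Lhbcre rests on which transcripts are counted. In that library alone the table also held an unnamed spliced transcript of 1610 nt at 12.3 (11.4 to 13.2) that starts at the upstream start and ends within the gene, at position 46331879 of mm39. Whether it holds either optional exon is not given in the files used here. With its level added to the total, the 3327 nt transcript made up 44.1% in Lhbcre, within the range of the adult whole gland. Transcripts from a start inside the gene, between exons 3 and 4 of the longest form, took 27.8% of the named Vegfa level in adult Tshbcre, 25.0% in Lhbcre, 21.0% in Ghcre, and 27.8% and 23.5% in whole glands of the adult and P7, and were listed at 0 in P7 Tshbcre. All of these shares depend on how Cufflinks divided reads among transcripts that share most of their bases.

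**Figure D2:**
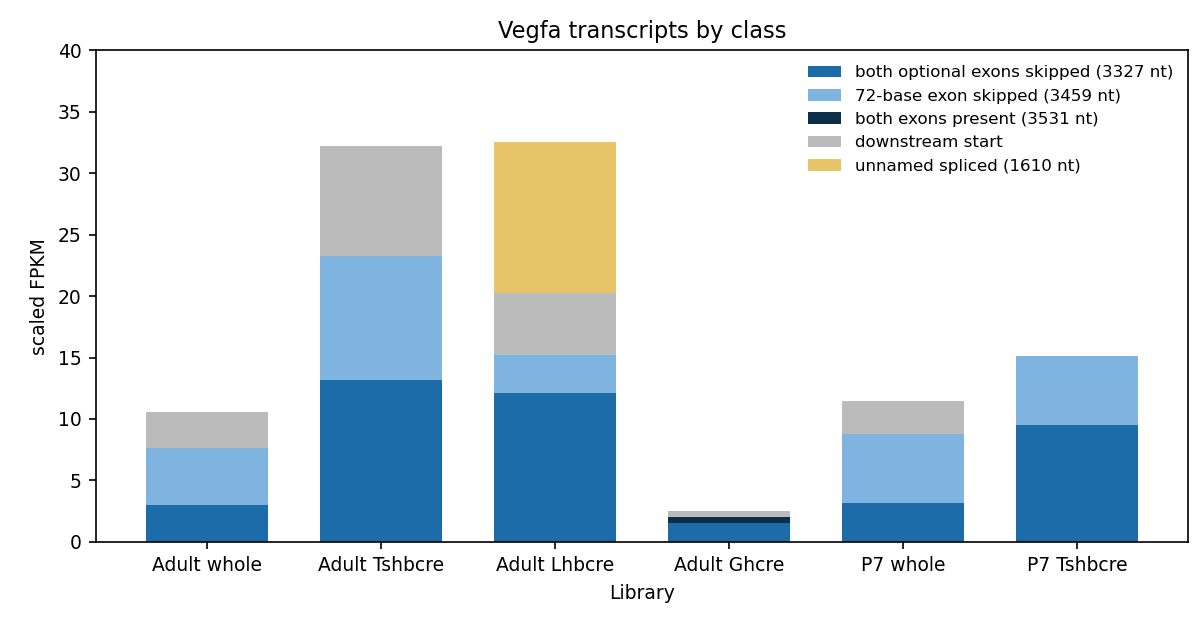
Vegfa in each library in scaled FPKM, stacked by transcript class; each bar is 1 library. The transcript that skips both optional exons is the largest named upstream-start class in the 4 sorted libraries, and the unnamed transcript of 12.3 appears in Lhbcre only.

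Pgf, which encodes placental growth factor, a ligand of Flt1 and not of Kdr, was high in 1 sorted library. It stood at 7.33 (6.79 to 7.89) in Lhbcre, 0.247 (0.0213 to 0.490) in adult Tshbcre, 0.625 (0.491 to 0.786) in Ghcre, 0.288 (0.147 to 0.471) in P7 Tshbcre, and 0.892 (0.532 to 1.27) and 1.34 (1.04 to 1.66) in whole glands of the adult and P7. The Lhbcre interval lay above all the others, which reached at most 1.66. Pgf was 4.40-fold higher in Lhbcre than in the adult whole gland (log2 difference 2.14) and passed the 4-fold rule, as did 3.85% of all genes in that direction. It was 6.68-fold lower in adult Tshbcre than in Lhbcre (log2 difference -2.74), with 4.33% of genes called lower in that comparison. Lhbcre also exceeded Ghcre 5.12-fold (log2 difference 2.36), a call that ended at 3.77-fold with equal sums.

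The Lhbcre library and the adult whole gland also differed in transcripts of the sex chromosomes. Xist, transcribed from the inactive X chromosome, stood at 29.4 in Lhbcre and 0.0599 in the adult whole gland, and Ddx3y, on the Y chromosome, stood at 0.0122 and 2.61. Adult Tshbcre was at 0.106 for Xist and 3.20 for Ddx3y. The P7 libraries held both, with Xist at 62.6 in sorted Tshbcre cells and 17.04 in the gland and Ddx3y at 2.09 and 2.12, and their Pgf levels were the 0.288 and 1.34 given above. The labels give no sex for these animals. Between the adult libraries sex and the Lhbcre genotype cannot be told apart, for Pgf as for Vegfa, nor can sex and age in the comparisons of P7 with the adult.

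Over the 16 VEGF ligands and other endothelial growth factors listed as a group, 10 reached the minimum level in adult Tshbcre against the adult whole gland and none was 4-fold apart, where 3.22% of all genes were higher and 3.84% lower. In Lhbcre 2 of 11 were higher and 1 was lower, where 3.85% and 5.46% of all genes were. In Ghcre 2 of 5 were lower, against 5.36% of all genes. In P7 Tshbcre none of 13 was apart, where 3.26% of all genes were higher and 6.11% lower. After Vegfa, Angpt1, a ligand of the receptor Tek, was the highest of the list in the adult whole gland, at 8.15, and stood at 7.96 in Ghcre, 3.78 in Lhbcre, 2.76 in adult Tshbcre, 0.240 in P7 Tshbcre and 2.35 in the P7 whole gland. The Ghcre level of Angpt1 thus lay within the interval of the adult whole gland, 7.27 to 9.05, and was the highest of the sorted libraries.

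Fgf1, a fibroblast growth factor, was the gene 4-fold lower in Lhbcre, at 1.10 against 7.54, and was also 4-fold lower in Ghcre, at 0.729. Vegfb, the other Flt1 ligand of the family, was listed at 0 in Ghcre and was at 5.31 in the adult whole gland, 7.28 in adult Tshbcre and 3.76 in Lhbcre. The second gene 4-fold higher in Lhbcre was Vegfd, which encodes a ligand of the lymphatic receptor Flt4 and was named here because of its values. Vegfd stood at 27.1 (25.4 to 28.7) in Lhbcre, 11.1 in adult Tshbcre, 20.0 in P7 Tshbcre, and 2.14 (1.54 to 2.76) and 14.5 in whole glands of the adult and P7, and is not listed for Ghcre. It was 8.95-fold higher in Lhbcre than in the adult whole gland and 4.93-fold higher in the P7 than in the adult whole gland, where 3.31% of genes were called higher. Vegfd lies on the X chromosome. Sex cannot be told apart from the Lhbcre genotype in the first of these comparisons, nor from age in the second.

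**Figure D3:**
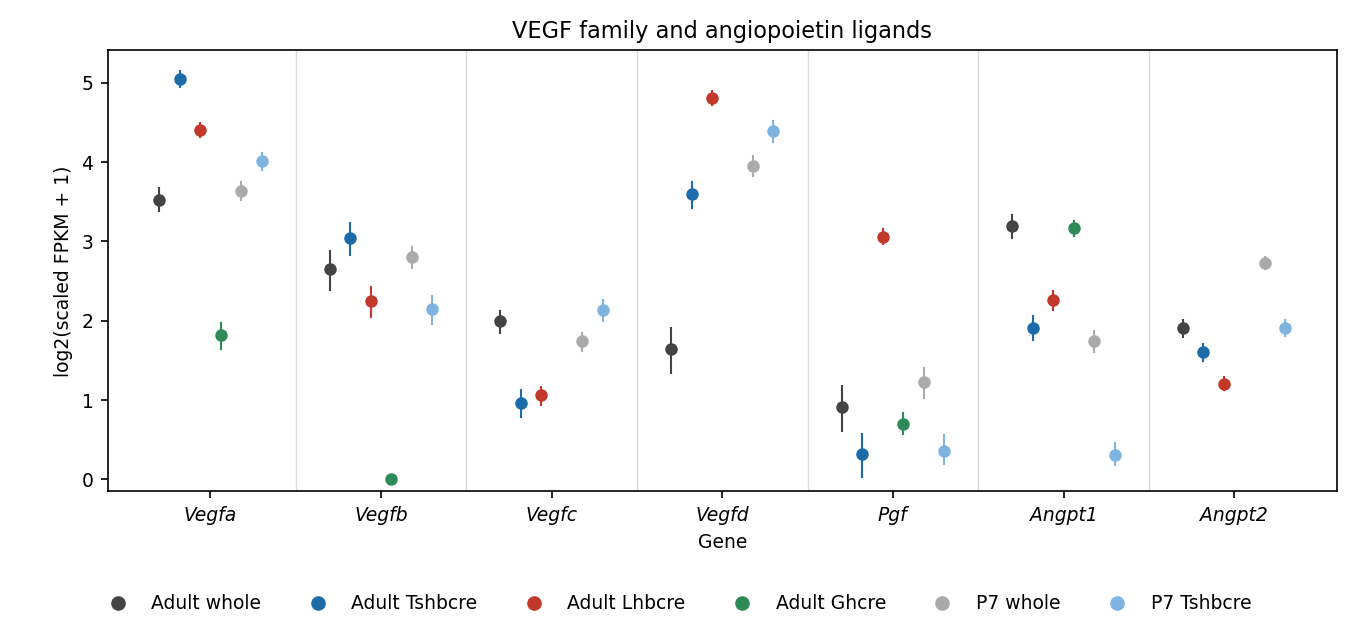
VEGF family and angiopoietin ligands by library as log2(scaled FPKM + 1); points are single libraries and lines the deposited intervals. By named transcripts Vegfa leads in adult Tshbcre, an order lost at 32.2 against 32.5 with the unnamed Lhbcre transcript added. Vegfd and Pgf lead in Lhbcre, and Angpt1 is at 7.96 in Ghcre against 8.15 in the adult whole gland.

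The receptor genes Kdr, Flt1 and Tek were higher in the whole glands than in any sorted library that lists them. Kdr, the main signalling receptor of VEGF-A (chromosome 5, 76093487 to 76139885 on mm39), stood at 13.4 (12.4 to 14.4) and 11.9 (11.2 to 12.7) in whole glands of the adult and P7, 4.66 (4.32 to 5.01) in Lhbcre and 1.17 (1.01 to 1.35) in adult Tshbcre, and its named transcripts were listed at 0 in P7 Tshbcre. That 0 is not absence, because the same table held an unnamed spliced transcript of 5737 nt over the whole span of Kdr at 0.236 (0.181 to 0.292). The intervals of the 2 whole glands overlapped and the sorted libraries lay well below them. Kdr was 6.63-fold lower in adult Tshbcre than in the adult whole gland (log2 difference -2.73), a call that held at -2.21 when an unnamed spliced transcript of 0.946 was added there. It was 2.54-fold lower in Lhbcre, which is under 4-fold.

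Flt1, which binds VEGF-A and placental growth factor and also gives a short, soluble receptor (chromosome 5, 147498414 to 147663419), stood at 6.43 (5.97 to 6.96) and 4.79 (4.44 to 5.19) in whole glands of the adult and P7, 1.57 (1.37 to 1.81) in Lhbcre, 0.910 (0.768 to 1.12) in adult Tshbcre and 0.0986 (0.0519 to 0.208) in P7 Tshbcre. No 2 neighbours in this order overlapped. The short transcript of 6315 nt made up 20.9% of the short and the full-length form (6895 nt) together in the adult and 33.3% in the P7 whole gland, 24.1% in adult Tshbcre and 23.5% in Lhbcre. In P7 Tshbcre the short form was listed at 0.0829 and the full-length form at 0.

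Tek, the angiopoietin receptor (chromosome 4, 94627322 to 94763213), stood at 4.72 and 4.31 in whole glands of the adult and P7, 1.78 in Lhbcre, 0.716 in adult Tshbcre and 0.180 in Ghcre. Its named transcripts were listed at 0 in P7 Tshbcre, where an unnamed spliced transcript of 3627 nt within the gene stood at 0.198. The Lhbcre value has no deposited interval, since a transcript of Tek has a failed status there. Tek was 4.84-fold lower in Ghcre than in the adult whole gland, which made it apart, and 3.33-fold lower in adult Tshbcre, which did not. The Ghcre call ended at -1.75 with equal sums.

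In the list of 12 VEGF receptors and co-receptors, which includes these 3 genes, the number called lower was 3 of 11 in adult Tshbcre, 5 of 7 in Ghcre, 0 of 11 in Lhbcre and 7 of 12 in P7 Tshbcre. The shares of all genes called lower in these 4 comparisons were 3.84%, 5.36%, 5.46% and 6.11%. None of the list was called higher. After Kdr, the highest of the list in the adult whole gland was Nrp1, a co-receptor of VEGF-A, at 9.53 against 2.54 in adult Tshbcre and 3.69 in Lhbcre. The co-receptor Nrp2, named here because of its values, stood at 7.48 (6.79 to 8.19) in P7 Tshbcre and 7.41 (6.81 to 8.02) in the P7 whole gland, and at 2.86 and 5.82 in the adult pair.

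Plvap (chromosome 8, 71950397 to 71964446) encodes the protein of the diaphragms that span endothelial fenestrae. By named transcripts it had the highest level of the 8 endothelial genes in both whole glands. It stood at 63.1 (60.1 to 66.1) and 31.7 (30.1 to 33.3) in whole glands of the adult and P7, 16.2 (15.3 to 17.1) in Lhbcre, 8.09 (7.24 to 8.95) in adult Tshbcre and 1.68 (1.41 to 1.96) in P7 Tshbcre, with no overlap between neighbours. The P7 whole gland held 50.2% of the adult level (log2 difference -0.97). Plvap was 12.2-fold lower in P7 Tshbcre than in the P7 whole gland and 3.72-fold lower in Lhbcre than in the adult whole gland.

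The junction and surface genes followed the same order in most libraries. Pecam1, an adhesion protein of endothelial junctions (chromosome 11, 106545039 to 106606107), stood at 7.99 and 6.47 in whole glands of the adult and P7, 2.55 in Lhbcre, 1.09 in adult Tshbcre, 0.500 in Ghcre and 0.432 in P7 Tshbcre, of which the last 2 overlapped. It was 4.31-fold lower in adult Tshbcre than in the adult whole gland (log2 difference -2.11), a call that ended with equal sums, at -1.93, and with spliced unnamed transcripts added. In Ghcre the call at -2.58 ended at -1.81 with equal sums. Emcn, the sialomucin endomucin (chromosome 3, 137046824 to 137136830), stood at 13.7 in both whole glands, 3.64 in Lhbcre, 1.70 in adult Tshbcre, 0.745 in Ghcre and 0.711 in P7 Tshbcre. Emcn thus did not separate the 2 whole glands, and its Ghcre and P7 Tshbcre intervals overlapped too.

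By named transcripts, Cdh5 and Esm1 were the 2 endothelial genes that were higher at P7 than in the adult whole gland with intervals apart. Cdh5, the cadherin of endothelial junctions (chromosome 8, 104828247 to 104871136), stood at 14.4 (13.7 to 15.2) and 9.65 (9.07 to 10.2) in the P7 and adult whole gland, 2.47 (2.11 to 2.82) in adult Tshbcre, 1.81 (1.63 to 1.99) in Lhbcre and 0.696 (0.579 to 0.821) in P7 Tshbcre. It was the one endothelial gene with a lower level in Lhbcre than in adult Tshbcre. An unnamed spliced transcript of Cdh5 at 1.84 in Lhbcre is not part of that value. Esm1, a secreted proteoglycan known from sprouting tip cells (chromosome 13, 113346193 to 113354638), stood at 3.35 (3.06 to 3.63) and 1.85 (1.52 to 2.18) in the P7 and adult whole gland, 0.948 in Lhbcre, 0.354 in adult Tshbcre and 0.393 in P7 Tshbcre, and was listed at 0 in Ghcre.

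Counted together, 4 of the 8 endothelial genes were 4-fold lower in adult Tshbcre than in the adult whole gland, where 3.84% of all genes were called lower, and their median log2 difference was -2.03. In Ghcre it was 3 of the 4 listed, against 5.36% of all genes, with a median of -2.43. In Lhbcre it was 0 of 8, against 5.46%, although all 8 were lower, by a median of -1.44. In P7 Tshbcre it was 7 of 8 against the P7 whole gland, where 6.11% of genes were called lower, with a median of -2.76 that includes the 2 genes listed at 0. These counts depend on the setting: the adult Tshbcre count was 7 with a pseudocount of 0.1, the Ghcre count 1 with equal sums and the Lhbcre count 2 with the FPKM as deposited. The median of all genes was at -0.02 in adult Tshbcre and -0.01 in P7 Tshbcre, and at 0.003 in Ghcre and 0.004 in Lhbcre. No endothelial gene was called higher in any of these 4 comparisons, where 3.22%, 4.44%, 3.85% and 3.26% of all genes were, and the 3 adult ones share their whole gland. Between the whole glands of the 2 ages, 0 of 8 were apart, where 6.59% of genes were apart in either direction.

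As a percent of the whole-gland level of the same age, the endothelial genes lay at 8.74% to 25.6% in adult Tshbcre (median 13.9%), 3.82% to 6.26% in Ghcre over the 3 above 0, 18.7% to 51.3% in Lhbcre (median 29.3%) and 2.06% to 11.8% in P7 Tshbcre over the 6 above 0. A list of 15 other endothelial markers, among them Eng and Egfl7, had medians of 14.9%, 3.45%, 29.2% and 4.32% in the same order. Of those markers, Ecscr was at 0 in adult Tshbcre, Eng, Cldn5 and Cd34 were at 0 in Ghcre, Erg and Ecscr were at 0 in Lhbcre, and Icam2, Cd34 and Ecscr were at 0 in P7 Tshbcre. The summed level of the 15 was 64.5 in the adult and 91.2 in the P7 whole gland, 9.91 in adult Tshbcre, 21.6 in Lhbcre and 4.63 in P7 Tshbcre. In bulk RNA, fewer endothelial cells and less of these transcripts per cell cannot be told apart.

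Markers of other vessel-associated cells were low in the same libraries. The 7 pericyte markers summed to 37.4 in the adult whole gland, 5.57 in adult Tshbcre and 4.22 in Lhbcre, and to 31.5 and 1.27 in the P7 whole gland and P7 Tshbcre. The 3 listed in Ghcre summed to 2.23. Of the endothelial genes, 7 of 8 were higher in Lhbcre than in adult Tshbcre. The pericyte markers were mixed between these 2 libraries. Pdgfrb, Cspg4, Kcnj8 and Abcc9 were higher in Lhbcre, and Rgs5, Notch3 and Anpep were lower. The lower pericyte sum in Lhbcre rested mostly on Rgs5, at 1.77 against 3.11. The macrophage markers given above summed to 9.04 in Lhbcre and 36.8 in adult Tshbcre, and each of them was lower in Lhbcre.

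**Figure D4:**
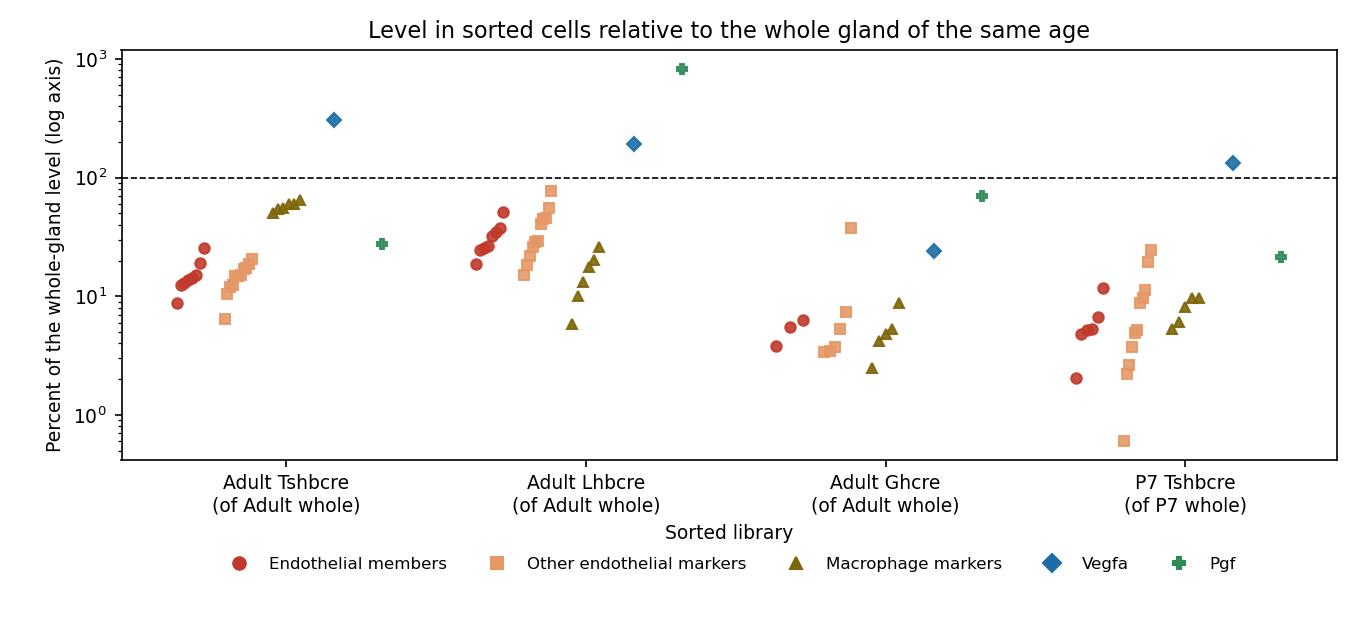
Level in each sorted library as a percent of the whole gland of the same age (log axis; the dashed line is 100%); each point is 1 gene at 1 scaled FPKM or more in the whole gland, plus Pgf, and genes listed at 0 are not drawn. The endothelial genes lie at 8.74% to 25.6% in adult Tshbcre and 18.7% to 51.3% in Lhbcre, while Vegfa lies above 100% in adult Tshbcre, Lhbcre and P7 Tshbcre.

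The 250 bases before the start sites of the 10 genes were also read, from RefSeq on GRCm38.p6. The table held 7 of the 10 genes, with 9 start sites, and none for Plvap, Pecam1 or Cdh5. The letters searched on both strands were AGGAAG (the core bound by the ETS family), ACGTG (the hypoxia response core), GGGCGG (the GC box) and TATAAA (the TATA box), which occur in 29.5%, 16.6%, 32.7% and 12.4% of 32851 promoters of this length. The 3 endothelial promoters that hold any of them are shown 5′ to 3′, with the matches in capitals.
Kdr (chr5:75978456-75978705, minus strand): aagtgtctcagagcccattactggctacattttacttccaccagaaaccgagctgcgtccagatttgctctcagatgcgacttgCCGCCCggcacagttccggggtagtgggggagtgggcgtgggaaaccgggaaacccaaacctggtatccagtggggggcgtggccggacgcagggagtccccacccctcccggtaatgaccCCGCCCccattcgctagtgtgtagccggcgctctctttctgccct
Flt1 (chr5:147726012-147726261, minus strand): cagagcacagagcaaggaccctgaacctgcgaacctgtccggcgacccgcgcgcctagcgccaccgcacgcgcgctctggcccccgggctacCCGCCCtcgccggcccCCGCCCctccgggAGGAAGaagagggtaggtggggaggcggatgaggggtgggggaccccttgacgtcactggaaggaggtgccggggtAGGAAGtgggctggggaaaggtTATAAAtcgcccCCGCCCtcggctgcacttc
Emcn (chr3:137340828-137341077, plus strand): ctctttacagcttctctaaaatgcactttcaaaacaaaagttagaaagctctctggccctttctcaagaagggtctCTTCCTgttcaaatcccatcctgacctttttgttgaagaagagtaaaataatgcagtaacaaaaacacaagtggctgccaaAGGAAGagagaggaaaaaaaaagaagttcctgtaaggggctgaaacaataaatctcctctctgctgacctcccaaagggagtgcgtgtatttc

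Flt1 held 2 matches of AGGAAG, 3 of GGGCGG and 1 of TATAAA, Emcn held 2 of AGGAAG, and Kdr held 2 of GGGCGG. The windows of Tek and Esm1 held none of the 4. The upstream window of Vegfa held 2 matches of GGGCGG. The window before its downstream start, which lies inside the gene, held 1 of ACGTG and 1 of GGGCGG. For Pgf the upstream window held 2 of GGGCGG, and the window before its downstream start held none of the 4. A match describes letters in the window and says nothing of binding.

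Lists of the genes that surround VEGF signalling were mostly not 4-fold apart. The hypoxia regulators are genes of the oxygen-sensing pathway that acts on Vegfa, and include both activators and inhibitors of it. Among them 0 of 7 were apart in adult Tshbcre, 1 of 4 in Ghcre, 1 of 8 in Lhbcre and 1 of 9 in P7 Tshbcre. All of those apart were lower, where 3.84%, 5.36%, 5.46% and 6.11% of all genes were lower. The called gene was Epas1, the hypoxia-inducible factor known from endothelium, which stood at 11.3 in the adult and 11.4 in the P7 whole gland, 4.14 in adult Tshbcre, 1.26 in Ghcre, 1.71 in Lhbcre and 0.919 in P7 Tshbcre. Egln2, the highest of the list in the adult whole gland, stood at 21.9 there, 18.5 in adult Tshbcre and 21.0 in Lhbcre. Hypoxia target genes had median log2 differences of -0.20, -0.58, -0.36 and 0.31 in the same order of libraries, and of their 2 highest members Aldoa stood at 148 in adult Tshbcre and 162 in Lhbcre against 109 in the adult whole gland, and Ddit4 at 11.7 and 12.0 against 19.6. The 1 target gene called, of 13 at the minimum level in adult Tshbcre, was Ankrd37, which was higher there, as were 3.22% of all genes. It stood at 4.22 in adult Tshbcre and 3.96 in the P7 whole gland, and was listed at 0 in the adult whole gland and Lhbcre.

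Secreted inhibitors of angiogenesis were lower in part, 1 of 7 in adult Tshbcre, 3 of 6 in Ghcre, 2 of 7 in Lhbcre and 4 of 10 in P7 Tshbcre, beside 3.84%, 5.36%, 5.46% and 6.11% of all genes. Sparc, a matrix protein, was at 36.3 in the adult whole gland, 8.84 in adult Tshbcre, 2.52 in Ghcre, 7.47 in Lhbcre, 82.5 in the P7 whole gland and 5.81 in P7 Tshbcre. Sema3f, a semaphorin, was at 17.2 in the adult whole gland, 4.21 in adult Tshbcre and 2.31 in Lhbcre. Col18a1 went against its list at P7, at 3.27 in P7 Tshbcre and listed at 0 in the P7 whole gland.

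Genes of sprouting tip cells were called in 1 of 8 in Lhbcre, which was Pgf and higher, as were 3.85% of all genes, and 2 of 9 in P7 Tshbcre, both lower, as were 6.11%. The 2 highest in the adult whole gland were Nid2 at 8.01 and Apln at 5.35, against 3.01 and 2.72 in adult Tshbcre. Genes of the barrier endothelium of the brain were called in 1 of the 4 sorted libraries, P7 Tshbcre, 2 of 7 and lower, against the same 6.11%. Slc2a1, the glucose transporter of that list, is not particular to vessels and stood at 12.6 in the adult whole gland and 23.9 in Lhbcre, and Itm2a stood at 5.16 and 3.07. Among transcription factors of endothelial cells, 2 of 11 were called in adult Tshbcre, 1 of 6 in Ghcre, 1 of 11 in Lhbcre and 0 of 13 in P7 Tshbcre. All of these were lower but 1, and 3.84%, 5.36%, 5.46% and 6.11% of all genes were lower in these comparisons. Gata2, also a factor of thyrotropes and gonadotropes, stood at 44.9 in adult Tshbcre against 8.20 in the adult whole gland and was called higher, as were 3.22% of all genes, opposite to Klf2, which was listed at 0 in adult Tshbcre and stood at 4.65 in the adult whole gland. Ets2, the highest of that list in the adult whole gland, stood at 21.4 there and at 21.8 in adult Tshbcre.

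Across all genes, the pattern of each ligand or vessel gene over the libraries was set beside the rest as a description. Over 6 libraries and 4272 genes, the Pearson correlation of log2(scaled FPKM + 1) with Vegfa was highest for Adprh (0.994), Arhgef2 (0.987), Acbd5 (0.981), Csf2ra (0.973) and Cisd1 (0.973). Over the 5 libraries that list Plvap and 6365 genes, the closest to Plvap were Abhd4 (0.999), Hpcal1 (0.998), Adgrl4 (0.998), Wwp2 (0.997) and Pde1b (0.997). Flt1 was at 0.978, rank 33, Pecam1 at 0.971, rank 46, and Vegfa at -0.49. These are 5 or 6 points from libraries that share 1 split into whole and sorted.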

How the data were processed

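Total RNA of 6 mouse pituitary libraries was sequenced after depletion of ribosomal RNA, with 250 ng of input, per the labels' protocols. The submitters' processing notes name FastQC, Bowtie2 and Cufflinks, with no version, and the build mm39. The deposited tables give, per transcript, the FPKM computed by the authors with its interval, and a coverage signal. The deposited coverage was a constant multiple of FPKM within a file and served as relative depth; read numbers are not given in the sources used here, nor is strand in counting, so the genes that overlap Plvap, Kdr, Flt1, Cdh5, Emcn and Esm1 cannot be told apart from them.

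FPKM was summed over the named transcripts of a gene (intervals too, which makes them wide) and divided by a median of ratios over 5808 genes that reach 1 FPKM in every library. These factors came to 1.10 and 1.42 for the whole glands (adult, P7), 1.00 and 0.976 for Tshbcre (adult, P7), 0.758 for Ghcre and 0.967 for Lhbcre. Comparisons used log2(scaled FPKM + 1) and the 4-fold rule, with a minimum of 1 in the higher library, in Python 3.11.15 with pandas 2.3.3 and numpy 2.4.6. The scaling and the rule were tested on simulated data. Genes missing from the Ghcre table count as not measured. The groups of libraries came from the labels.

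Named from each gene list were the 2 highest in the adult whole gland and genes apart opposite to their list, besides all 10 members; genes named because of their values are said to be so. Likeness used genes with NM accessions that reach a scaled FPKM of 5 somewhere and lie above 0 in all libraries used. Marker lists for mesenchymal, erythroid, pituicyte, thyrotrope, gonadotrope, somatotrope, lactotrope and corticotrope cells were also scored: mesenchymal markers summed to 111 in the adult whole gland, 26.0 in adult Tshbcre and 27.6 in Lhbcre, erythroid to 1064, 130 and 102, pituicyte to 9.00, 0.926 and 1.84, and corticotrope and melanotrope to 1590, 264 and 320. Lactotrope markers summed to 17603 in the adult whole gland and 6549 in adult Tshbcre, and somatotrope markers, Gh included, to 14818 in adult Tshbcre. Alternatives were another pseudocount, FPKM as deposited, equal sums, a minimum of 5, assembled transcripts added and NM accessions only; factors without Ghcre, status OK only and spliced unnamed transcripts were chosen after seeing the data. The level of 1 marker gene is not reported here. The members and lists were chosen with earlier results of these data known.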

Additional observations from a re-analysis of the deposited data

Results flagged for a closer look

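Vegfa moved in opposite directions in sorted libraries of the same design. Its log2 difference from the whole gland of the same age was 1.53 in adult Tshbcre, 0.88 in Lhbcre and 0.38 in P7 Tshbcre, against -1.71 in Ghcre. Pgf was above the whole gland in Lhbcre, by 2.14, and was below it in adult Tshbcre, at -0.6, and in P7 Tshbcre, at -0.86. The adult Tshbcre value rests on levels under the minimum, 0.247 against 0.892. With an unnamed spliced transcript added, the adult Tshbcre level was 0.651, within the whole-gland interval of 0.532 to 1.27. Each of these is 1 library against 1, and the differences between them were not tested.

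Unnamed spliced transcripts lay within genes of the list and are outside the values above, where the whole gland of the same age held none. For Vegfa this was 12.3 scaled FPKM in Lhbcre, and for Cdh5 1.84 in Lhbcre. For Kdr it was 0.946 in adult Tshbcre and 0.236 in P7 Tshbcre, for Tek 0.219 in Ghcre and for Pgf 0.404 in adult Tshbcre.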

How the results depend on the processing

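Of 40 alternative values of the Vegfa differences 28 stayed within their interval, and of 45 counts of endothelial genes 38 stayed within 1.5 times. With the FPKM as deposited, the Vegfa difference at P7 between Tshbcre and the whole gland turned from 0.38 to -0.13, that of Ghcre went to -2.12 and that between the whole glands to 0.45, and 2 endothelial genes were 4-fold lower in Lhbcre. With sums made equal, the Vegfa difference was -0.56 in Ghcre, 1.28 in Lhbcre and 0.68 in P7 Tshbcre, and 1 endothelial gene was lower in Ghcre. With assembled transcripts added it was 0.62 in adult Tshbcre, -3.59 in Ghcre, 2.17 in Lhbcre and -0.33 in P7 Tshbcre, and 1 endothelial gene was apart in Lhbcre and 1, Flt1, between the whole glands. With a pseudocount of 0.1 it was -2.02 in Ghcre, and 7 endothelial genes were lower in adult Tshbcre and 1 in Lhbcre; with NM accessions only, 1 was lower in Lhbcre. With spliced unnamed transcripts added, chosen after seeing the data, Vegfa in Lhbcre was at 1.54. Every endothelial gene listed was lower than the whole gland in the 4 sorted libraries under all the settings run. Between the whole glands, the direction of Pecam1, Kdr and Tek turned with the FPKM as deposited. With assembled transcripts added, Pecam1, Kdr, Flt1 and Tek turned to higher at P7 and Emcn to lower. Kdr then stood at 69.5 at P7 against 26.9 in the adult, and Flt1 at 59.1 against 6.81. Both passed Plvap in the P7 whole gland, at 48.4. Equal sums moved the median of all genes by 1.09 in Ghcre, 0.37 in Lhbcre and 0.27 in P7 Tshbcre, and the FPKM as deposited moved it by -0.46 in Ghcre and -0.47 in P7 Tshbcre; the share of calls that were higher went from 45.3% to 79.2% in Ghcre and from 41.3% to 52.7% in Lhbcre with equal sums, and from 34.8% to 24.6% in P7 Tshbcre as deposited. The cause of these shifts was not tested. No paired analysis was possible because each group holds 1 library. Depth limits the precision of low levels, and only the deposited intervals show how far.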
